A study of Mus musculus with 12 samples.

Results

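The nuclear-encoded subunits of the mitochondrial respiratory chain and ATP synthase were taken as the protein-coding genes whose GRCm38 symbol begins with Ndufa, Ndufb, Ndufc, Ndufs or Ndufv and a digit, is Sdha, Sdhb, Sdhc or Sdhd, or begins with Uqcr, Cox4 to Cox8 or Atp5. This gave 85 of the 56691 mouse gene IDs counted, with 37 in complex I, 4 in complex II, 8 in complex III, 18 in complex IV and 18 in complex V. They carry 84 symbols, since Atp5o stands under a pair of IDs, of which ENSMUSG00000116933 had no count in any library. The 12 non-coding genes and pseudogenes with matching symbols were set aside. The symbols also bring in genes that are not fixed parts of the enzymes, such as Atp5s, the coupling factor B of ATP synthase, and they miss Cyc1, the cytochrome c1 of complex III, which is described with related genes.

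All 12 libraries came from R1 129, a male mouse embryonic stem cell line of 129/Sv background, which is 1 line and stands for no other. The 4 groups had 3 libraries each. Primed cells, at day 0, were untreated and grew on gelatin in high-glucose medium with serum and LIF, the cytokine that holds these cells undifferentiated. The second group had 6 days of 2i, a pair of kinase inhibitors that holds mouse embryonic stem cells in the naive state. The other 2 groups had the same 6 days of 2i together with 25 or 50 µM of MRE11i, an inhibitor of the DNA repair nuclease MRE11 that the labels give no other name. No group had the inhibitor without 2i, and no group had 6 days without 2i, so 2i and time in culture cannot be told apart. RNA was read with a QuantSeq 3′ kit, which makes its tags at the poly(A) end of each transcript. Levels are given as CPM, the counts scaled to a fixed library size, within a gene, and are not compared between genes.

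The respiratory chain passes electrons from NADH, through complex I, and from succinate, through complex II, to ubiquinone, then through complex III and cytochrome c to complex IV, which reduces oxygen. Complexes I, III and IV pump protons, and complex V, the ATP synthase, uses the gradient to make ATP. Except for complex II, each also holds subunits made inside the mitochondrion, so that the nuclear genes described here supply only part of those enzymes. Naive mouse embryonic stem cells use both glycolysis and respiration, while stem cells of the later, primed epiblast rely more on glycolysis. The group called primed here held embryonic stem cells in serum and LIF and not such epiblast stem cells.

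Library totals lay between 5894561 and 7060126 counts, of which the subunit genes took 2.05 to 2.73%. In every group the library numbered 1 stood apart from the other two: 1 gene ID without a symbol, ENSMUSG00000119584, took 2.32 to 2.71% of its counts, against 0.663 to 1.23% in the libraries numbered 2 and 3. Results that rest on these libraries are also given without them. The labels do not say whether the replicates were separate cultures, and the spread on which the p-values rest may thus be technical only. All 10 embryonic stem cell markers examined, among them Pou5f1 and Nanog, were measured in every group, with summed levels of 4390 to 5050 CPM in primed, 4640 to 4870 CPM in 2i, 4660 to 4860 CPM at 25 µM and 4450 to 5080 CPM at 50 µM. Summed over 8 fibroblast markers, of which 3 passed the low-count filter, the level was 30.8 to 73.5 CPM in primed, 12.7 to 18 CPM in 2i, 5.96 to 7.16 CPM at 25 µM and 1.94 to 3.08 CPM at 50 µM. For 6 trophoblast markers, 4 of them tested, it was 243 to 427 CPM in primed, 121 to 171 CPM in 2i, 110.0 to 143 CPM at 25 µM and 79.7 to 110.0 CPM at 50 µM. No listed marker was at 0 in all 12 libraries. The sum of 6 neural markers, all tested, was 125 to 136 CPM in primed and 77.9 to 100.0 CPM in 2i. For 5 mesoderm markers, 3 of them tested, it was 6.56 to 7.93 CPM in primed and 9.98 to 15.6 CPM in 2i. At both doses these 2 sums overlapped 2i. For 6 endoderm markers, 2 of them tested, the sum was 5.55 to 14.5 CPM in primed and 6.76 to 8.25 CPM in 2i. It was 5.82 to 6.74 CPM at 25 µM and 4.03 to 4.69 CPM at 50 µM. The fibroblast, trophoblast, neural, mesoderm and endoderm sums, and that of striated muscle given below, moved with groups that are compared here. Their part in the results was not tested. In such bulk RNA, a change in the share of cells and a change in RNA per cell cannot be told apart.

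Of the 85 members, 79 had enough counts to be tested, 36 in complex I, 4 in complex II, 8 in complex III, 14 in complex IV and 17 in complex V. The 6 left out were Ndufs5, Cox4i2, Cox6a2, Cox8b, Cox8c and the empty Atp5o ID. In the last 300 bases of Ndufs5, 54.6% of 50-base words also stand in transcripts of BC002163. Part of the Ndufs5 reads may thus have been lost or shared by the counting. Summed over the 79 genes, the level was 21134, 23454 and 23024 CPM in the primed libraries, 22792, 24564 and 23651 CPM in 2i, 24468, 25367 and 26001 CPM at 25 µM and 25837, 24205 and 27772 CPM at 50 µM. These group means were 105.0, 112.2 and 115.1% of the primed mean at 2i, 25 µM and 50 µM. The libraries of 2i overlapped those of primed, and those of 50 µM overlapped those of 2i.

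**Figure D1:**
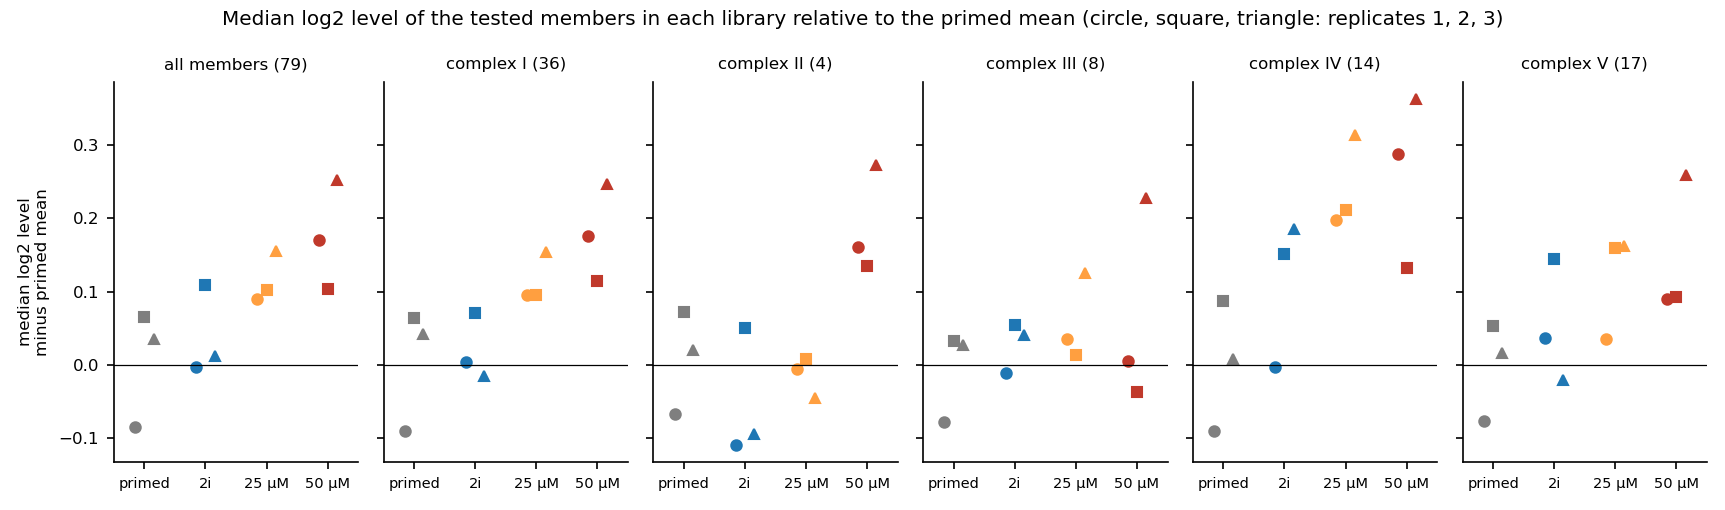
Median log2 level of the tested subunit genes in each library, relative to the mean of the primed libraries, for all 79 genes and for each complex (number of genes in parentheses). Points are libraries, with a circle, square and triangle for replicates 1, 2 and 3; over all 79 genes the libraries lie between 0.10 and 0.25 at 50 µM and between -0.09 and 0.07 in primed.

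By complex, the summed levels are given as a description, with no test. Complex IV was the furthest above primed of the 5 in each group, with 112.8, 119.5 and 122.3% of the primed mean at 2i, 25 µM and 50 µM. Complex III came to 104.1, 107.5 and 106.6%, complex I to 102.6, 111.1 and 115.8%, complex V to 101.7, 109.4 and 111.6%, and complex II to 97.5, 104.5 and 116.1%. The same groups gave 97.7, 100.5 and 102.2% when all 13230 tested genes were summed. Such sums weigh genes with many counts most. The complex IV sum averaged 5958 CPM in primed and 6722 CPM in 2i, and Cox5a within it 589 and 979.8 CPM. Cox7c gave 1929 and 2077 CPM of these sums. In its last 300 bases, 99.2% of 50-base words also stand in transcripts of other genes, so its level is uncertain. The plot of library medians shows how far single libraries reach: at 50 µM, replicate 3 was the highest of the 3 in every complex.

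In 2i against primed, 9 of the 79 subunit genes rose and 4 fell (adjusted p below 0.05, edgeR's quasi-likelihood test adjusted over all 13230 genes by Benjamini and Hochberg). This is 16.5% of the members, against 40.4% of all genes tested and 41.7% of the 5026 genes with a mean log2 CPM of 5 or more. Of all genes, 20% rose and 20.4% fell. Without the 4 libraries numbered 1, 14 genes were called, which include these 13. The libraries of the groups did not overlap for 26 of the 79 members, against 50.4% of all genes. The members' median log2 fold change was 0.05, with 46 above 0 and 33 below, beside -0.01 for all genes. It was 0.005 without primed replicate 1, 0.029 without 2i replicate 2 and 0.080 with library totals as the only scaling. Of the 66 that did not pass, 63 had a 95% interval that stayed within 0.5 on the log2 scale either way. The other 3 were Sdhd, Atp5g2 and Ndufb4, whose intervals were wider. By complex, 3 rose and 2 fell in complex I, none changed in complex II, 1 rose and 1 fell in complex III, 5 rose in complex IV and 1 fell in complex V.

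**Figure D2:**
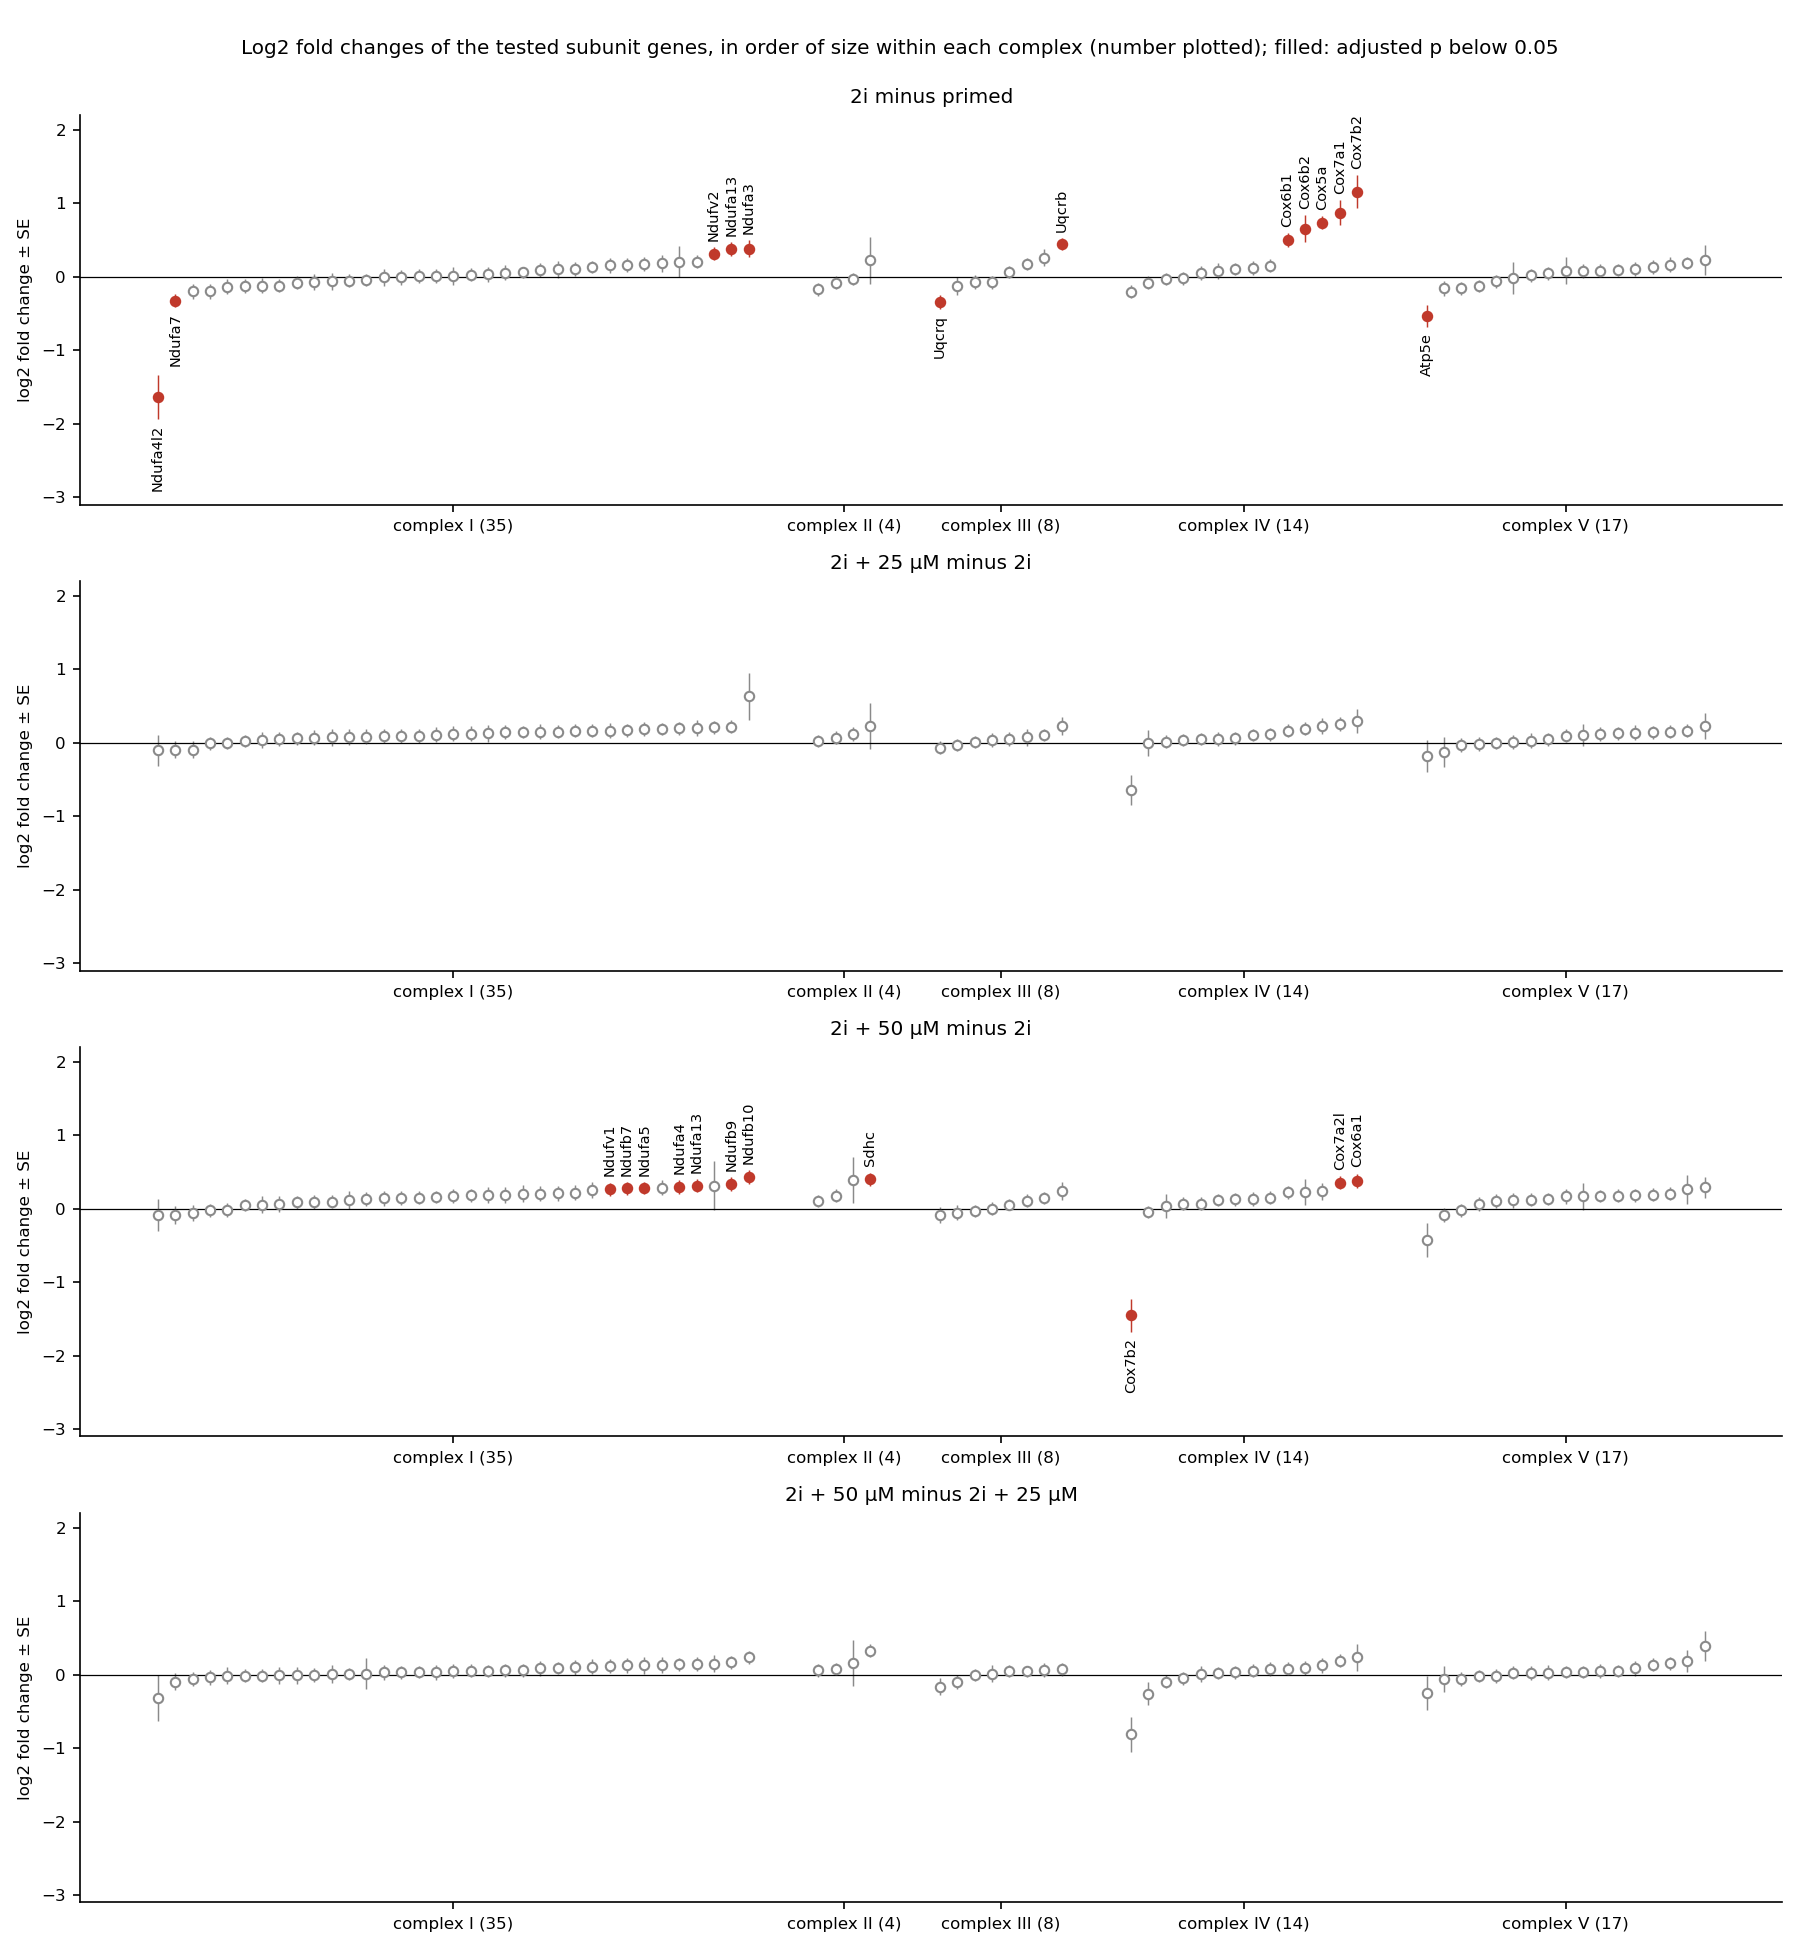
Log2 fold changes of 78 of the 79 tested subunit genes (points, with SE as bars) in order of size within each complex, for 2i minus primed, 2i with 25 µM MRE11i minus 2i, 2i with 50 µM minus 2i and 50 µM minus 25 µM. Filled points passed an adjusted p of 0.05: 13, 0, 11 and 0 of the genes plotted, from top to bottom.

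Complex IV, cytochrome c oxidase, held 5 of the 9 genes that rose, which were Cox5a, Cox6b1, Cox7b2, Cox7a1 and Cox6b2. With none that fell, this is 35.7% of its 14 tested genes called, beside 40.4% of all genes, of which 20% rose. Cox5a (ENSMUSG00000000088, chr9:57521274-57532426, GRCm38), a subunit on the matrix side that every form of the enzyme carries, had 992, 1047 and 900.3 CPM in 2i, against 529.5, 619 and 618 CPM in primed. All 2i libraries lay far above all primed ones, and the level was 1.66-fold higher (log2 fold change 0.74 ± 0.09 SE, adjusted p = 5.17e-07 by edgeR). At 25 and 50 µM it stayed between 927 and 1039 CPM. Cox6b1, the subunit of this family found in most tissues, had 384, 378 and 369.9 CPM in 2i, against 253, 282 and 264 CPM in primed, with no overlap (0.50 ± 0.09, adjusted p = 9.13e-05 by edgeR).

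The other 3 encode isoforms known from particular tissues, of heart and skeletal muscle for Cox7a1 and of testis for Cox7b2 and Cox6b2. Cox7a1 (chr7:30184144-30186078) had 52.8, 66.6 and 65.3 CPM in 2i, against 33.3, 37.7 and 29.9 CPM in primed, a 1.83-fold rise (0.88 ± 0.17, adjusted p = 4.94e-04 by edgeR). Summed over 5 striated muscle markers, of which 2 were tested, the level was 5.0 to 10.6 CPM in 2i against 22.0 to 49.9 CPM in primed. The bearing of this sum on Cox7a1 was not tested. Cox7b2 (chr5:71442824-71548205) had 11.8, 15.9 and 13.7 CPM in 2i, against 5.13, 6.56 and 6.86 CPM in primed, the largest rise among the members at 2.24-fold (1.16 ± 0.22, adjusted p = 1.85e-04 by edgeR). It is a low count, with 270 counts in the 3 libraries of 2i and 116 in those of primed. Cox6b2 had 100.0, 87.6 and 64.7 CPM in 2i, against 53.1, 55.5 and 51.7 CPM in primed (0.66 ± 0.19, adjusted p = 0.0115 by edgeR). Its 2i libraries were spread widely, and the lowest of them was still above the highest of primed.

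Each of these isoforms has a partner that can take its place in the enzyme, so their shares of the pair's counts were also compared, as a description without a test. Cox7a1 made up 12.9 ± 1.3% of the tags of Cox7a1 and Cox7a2 in 2i and 8.26 ± 0.74% in primed (SD, n = 3 each), while Cox7a2, the form of most tissues, had 0.15 ± 0.09 on the log2 scale and did not pass. Cox7b2 made up 2.81 ± 0.37% of the tags of Cox7b and Cox7b2 in 2i and 1.26 ± 0.19% in primed, with Cox7b at -0.02 ± 0.08. Cox6b2 was 18.1 ± 3.0% of its pair in 2i and 16.7 ± 0.56% in primed, and Cox6b1, its partner, rose in 2i as well. The libraries of the groups did not overlap for the shares of Cox7a1 and Cox7b2 and did overlap for Cox6b2. The remaining isoforms of restricted tissues were nearly silent: in primed, 2i, 25 µM and 50 µM, Cox4i2 had 18, 6, 6 and 3 counts over 3 libraries, Cox6a2 had 2, 2, 5 and 0, Cox8b had 1, 2, 1 and 1, and Cox8c had 14, 11, 5 and 3. Their partners Cox4i1, Cox6a1 and Cox8a, the general forms, were measured at 351 CPM or more on average in each group and none passed the test in 2i against primed.

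Promoters are shown for 4 complex IV genes that changed, a pair of general forms and a pair of tissue isoforms, to set their letters side by side. Each window runs from 250 bases before to 50 bases after the RefSeq start (GRCm38.p6), 5′ to 3′ on the gene's strand. Capitals mark every match, on either strand, to the letters searched: the NRF1 palindrome (GCGCA followed directly by TGCGC) and a looser form with any base in place of its T, CCGGAAG for GABP and other ETS factors, AAGATGGC for YY1, CCAAT for NFY, TCAAGGTCA for estrogen-related receptors, CACGTG for E-box factors and GGGCGG for SP and KLF factors. NRF1, GABP and YY1 are known as activators of respiratory chain genes. The windows are chr9:57520982-57521281 on the plus strand for Cox5a, chr5:115348909-115349208 on the minus strand for Cox6a1, chr7:30183921-30184220 on the plus strand for Cox7a1 and chr5:71548156-71548455 on the minus strand for Cox7b2.
Cox5a: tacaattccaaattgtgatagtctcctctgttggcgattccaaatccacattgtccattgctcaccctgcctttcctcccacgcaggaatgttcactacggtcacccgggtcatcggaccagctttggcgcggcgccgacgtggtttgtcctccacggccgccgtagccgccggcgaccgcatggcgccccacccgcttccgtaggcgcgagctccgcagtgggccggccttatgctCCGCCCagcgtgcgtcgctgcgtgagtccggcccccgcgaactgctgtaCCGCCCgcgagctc
Cox6a1: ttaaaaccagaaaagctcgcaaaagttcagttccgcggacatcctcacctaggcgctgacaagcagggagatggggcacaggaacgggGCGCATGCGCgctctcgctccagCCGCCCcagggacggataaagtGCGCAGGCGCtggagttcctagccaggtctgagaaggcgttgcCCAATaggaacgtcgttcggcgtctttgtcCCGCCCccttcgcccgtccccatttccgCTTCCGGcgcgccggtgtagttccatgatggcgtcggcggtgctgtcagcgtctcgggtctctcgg
Cox7a1: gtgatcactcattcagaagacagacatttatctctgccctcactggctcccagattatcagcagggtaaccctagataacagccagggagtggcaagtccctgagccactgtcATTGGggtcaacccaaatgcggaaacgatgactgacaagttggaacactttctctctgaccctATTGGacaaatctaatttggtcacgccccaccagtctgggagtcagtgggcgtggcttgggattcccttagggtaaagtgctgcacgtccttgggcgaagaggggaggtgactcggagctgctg
Cox7b2: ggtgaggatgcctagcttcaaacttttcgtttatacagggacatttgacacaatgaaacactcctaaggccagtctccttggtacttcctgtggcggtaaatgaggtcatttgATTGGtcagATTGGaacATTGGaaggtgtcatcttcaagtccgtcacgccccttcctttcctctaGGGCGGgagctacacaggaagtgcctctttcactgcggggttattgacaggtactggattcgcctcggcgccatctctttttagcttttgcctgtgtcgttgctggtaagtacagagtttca

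Cox6a1 holds the NRF1 palindrome once, its looser form at 2 places that include that one, CCGGAAG once, CCAAT once and GGGCGG at 2 places, with 32 CpG. Cox5a holds GGGCGG at 2 places and none of the other letters, with 35 CpG. The window of Cox7a1 has CCAAT at 2 places and 7 CpG, and that of Cox7b2 has CCAAT at 3 places, GGGCGG once and 10 CpG. RefSeq windows were found for 68 of the 84 symbols, 73 windows in all, and they were set beside all 32851 windows of the table. Among members, the NRF1 palindrome was in 6.85% of windows against 0.971% of all, its looser form in 24.7% against 4.60%, CCGGAAG in 21.9% against 8.86% and AAGATGGC in 13.7% against 2.75%. CCAAT was in 42.5% of member windows against 37.4%, with 3 or more places in 9.59% against 3.37%. GGGCGG was in 39.7% against 35.7%, CACGTG in 9.59% against 7.15% and TCAAGGTCA in 2.74% against 0.423%. Member windows also had more CpG, with a median of 19 against 7, and the part of CpG content in these shares was not tested. These matches are descriptions of the sequence and not of binding.

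In complex I, the NADH dehydrogenase, Ndufa13, Ndufv2 and Ndufa3 rose in 2i and Ndufa4l2 and Ndufa7 fell. Ndufa4l2 (chr10:127514967-127517154), a target of the hypoxia factor HIF1 that is known to lower complex I activity, had 2.30, 3.09 and 2.58 CPM in 2i, against 6.68, 10.3 and 8.10 CPM in primed. The groups were well apart, at 3.11-fold lower in 2i (-1.64 ± 0.30, adjusted p = 1.17e-04 by edgeR), on 52 counts in 2i and 156 in primed. It made up 0.981 ± 0.15% of the tags of Ndufa4 and Ndufa4l2 in 2i and 2.77 ± 0.59% in primed. Its gene overlaps Shmt2 on the opposite strand, and since the strand setting of the counting is not given, reads of the pair cannot be told apart here.

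Ndufa13, also known as GRIM-19, a membrane-arm subunit needed to assemble complex I, had 184, 166 and 176 CPM in 2i, against 133, 140.2 and 130.2 CPM in primed (0.38 ± 0.09, adjusted p = 0.00166 by edgeR), with no overlap. Its gene overlaps Yjefn3 on the same strand and Tssk6 on the other, which makes its counts uncertain. Ndufa3, Ndufv2, Uqcrb and Cox5a also have an overlapping gene on the opposite strand. Ndufv2, which carries an iron-sulfur cluster beside the NADH site, had 279, 289 and 279 CPM in 2i, against 217, 228 and 235 CPM in primed (0.32 ± 0.09, adjusted p = 0.00676 by edgeR). Ndufa7, an accessory subunit, had 204, 204 and 210.0 CPM in 2i, against 237, 278 and 258 CPM in primed (-0.32 ± 0.09, adjusted p = 0.00567 by edgeR). In both genes the groups stood apart, by under 0.5 on the log2 scale. Ndufa3, a small accessory subunit, had a log2 fold change of 0.38 ± 0.12 (adjusted p = 0.0112 by edgeR). Its call was lost without primed replicate 1 (adjusted p = 0.0528 by edgeR) or without 2i replicate 2 (adjusted p = 0.0761 by edgeR).

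Among other core subunits of the matrix arm of complex I, Ndufs1, Ndufs3, Ndufs7, Ndufs8 and Ndufv1 had log2 fold changes between -0.20 and 0.06 in 2i against primed, and none of these 5 passed. Complex II, succinate dehydrogenase, which is also an enzyme of the tricarboxylic acid cycle, had no gene past the test: Sdha and Sdhb, its catalytic pair, were at -0.03 ± 0.08 and -0.08 ± 0.09, and the membrane anchors Sdhc and Sdhd at -0.17 ± 0.09 and 0.23 ± 0.32. Sdhd varied widely among its own replicates, with 78.6, 126 and 91.1 CPM in 2i and 55.0, 99.5 and 99.1 CPM in primed.

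In complex III, ubiquinol-cytochrome c reductase, a pair of small subunits moved in opposite directions. Uqcrb, which binds ubiquinone, had 414, 429 and 443 CPM in 2i, against 321, 311 and 311 CPM in primed, with no overlap (0.45 ± 0.08, adjusted p = 1.76e-04 by edgeR). In its last 300 bases, 40.6% of 50-base words also stand in transcripts of 4 other genes (Gm16089, Gm19326, Gm2962 and Gm5457), so part of its reads may have been lost or shared by the counting. Uqcrq, the subunit VII that lies next to cytochrome b, had 343, 389.9 and 368 CPM in 2i, against 421, 497 and 476 CPM in primed (-0.34 ± 0.10, adjusted p = 0.00805 by edgeR). That call was lost without primed replicate 2 (adjusted p = 0.0514 by edgeR) or 2i replicate 1 (adjusted p = 0.0515 by edgeR). The core proteins Uqcrc1 and Uqcrc2 and the Rieske iron-sulfur protein Uqcrfs1 lay between -0.07 and 0.06 and did not pass.

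In complex V, Atp5e, the epsilon subunit in the central stalk of F1, had 201, 162 and 138 CPM in 2i, against 263, 249.5 and 214 CPM in primed (-0.54 ± 0.15, adjusted p = 0.00775 by edgeR). In both groups its level was highest in the library numbered 1 and lowest in that numbered 3. The catalytic head did not pass: Atp5a1, Atp5b and Atp5c1, the alpha, beta and gamma subunits, were at -0.16 ± 0.10, 0.02 ± 0.09 and 0.11 ± 0.10. Neither did the 3 genes of the c-ring, Atp5g1, Atp5g2 and Atp5g3, which encode the same mature protein, at 0.08 ± 0.10, 0.23 ± 0.21 and 0.14 ± 0.10. For Atp5g2, 98.4% of the 50-base words near its 3′ end are shared with other genes, so its level of 4.82 to 8.09 CPM over the 12 libraries is uncertain.

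**Figure D3:**
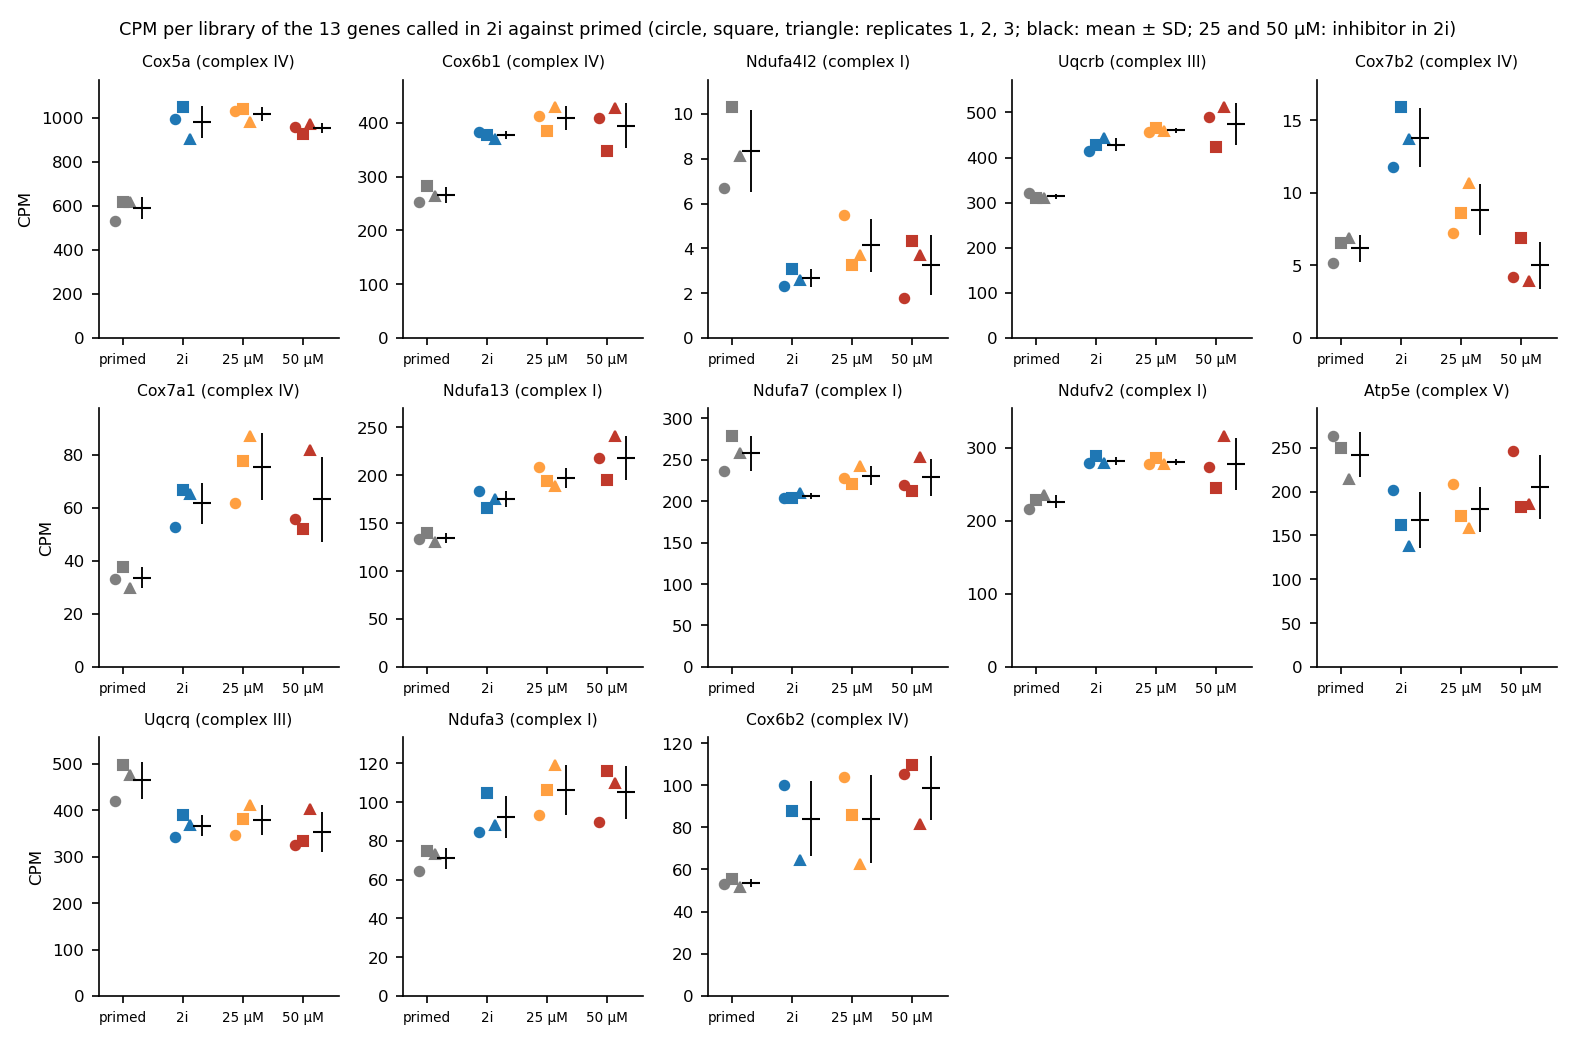
CPM per library of the 13 subunit genes called in 2i against primed, in primed, 2i and 2i with 25 or 50 µM MRE11i, each panel from 0. Points are libraries and the black bars give the mean and SD of 3; Cox5a, for example, averages 979.8 CPM in 2i and 589 CPM in primed, and Cox7b2 averages 4.99 CPM at 50 µM and 13.8 CPM in 2i.

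The dose groups show how these genes behaved when MRE11i was added to 2i. At 25 µM, none of the 79 genes passed against 2i, where 0.937% of all genes did. At an unadjusted p under 0.05, 7 lay higher and 1 lower, and DESeq2 called none as well. Their log2 fold changes leaned upward, with 65 of 79 above 0 and a median of 0.10, beside 6724 of all 13230 genes above 0 and a median of 0.00. Of the genes with a mean log2 CPM of 5 or more, 2807 of 5026 lay above 0, with a median of 0.02. The members' median was 0.060 without 2i replicate 1 and 0.058 with library totals as the only scaling, which put the median of all genes at -0.036. Replicate numbers were taken to pair the libraries of the 3 groups with 2i, and with the number as a block 2 members passed, against 4.74% of all genes: Cox6a1 (0.25, adjusted p = 0.0254 by edgeR) and Cox7b2 (-0.64, adjusted p = 0.033 by edgeR).

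At 50 µM, 11 of the 79 genes rose against 2i and 1 fell, which is 15.2% of members beside 15.1% of all genes tested and 16.4% of those with a mean log2 CPM of 5 or more. In this fit, which leaves the replicate number out, the share called was thus that of the background. Of all genes, 7.01% rose and 8.07% fell. The members' median log2 fold change was 0.15, with 66 of 79 above 0, beside 0.01 for all genes, of which 6771 of 13230 lay above 0. Genes with a mean log2 CPM of 5 or more leaned slightly upward too, with 2782 of 5026 above 0 and a median of 0.03. Complex I had 8 risers among 36 genes, complex II 1 among 4, and complex IV 2 risers and 1 faller among 14. Complexes III and V had none among 8 and 17. With the replicate block, 25 of the 79 rose and 1 fell, a larger share called than the 24.5% of all genes. Of these risers, 14 were in complex I, 1 in complex II, 4 in complex IV and 6 in complex V. Without the 4 libraries numbered 1, 6 rose and 1 fell.

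These counts and the median depend on single libraries. The median log2 fold change of the members was 0.064 without 50 µM replicate 3, 0.099 without 2i replicate 1 and 0.082 with library totals alone, beside -0.022, -0.013 and -0.055 for all genes under the same settings. For the calls, leaving out 50 µM replicate 3 left 3, leaving out 50 µM replicate 1 left 6, and leaving out any of the 3 libraries of 2i left 6. Only Cox7b2 and Ndufb10 were called under every omission of a library. Scaling by library totals alone gave 5 calls, 4 up and 1 down, and relative log expression factors and DESeq2 gave 9 each.

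Cox7b2 was the member that fell, and it had the largest change. It had 4.23, 6.86 and 3.89 CPM at 50 µM, against 11.8, 15.9 and 13.7 CPM in 2i, on 94 counts at 50 µM and 270 in 2i. The level was 2.74-fold lower at 50 µM (-1.45 ± 0.23, adjusted p = 1.82e-04 by edgeR), and it lay between these at 25 µM, with 7.21, 8.62 and 10.7 CPM. The share of Cox7b2 in the tags of its pair was 2.81 ± 0.37% in 2i, 1.77 ± 0.30% at 25 µM and 0.970 ± 0.38% at 50 µM (SD, n = 3 each). Against primed, 50 µM was at -0.29 ± 0.25 and did not pass. Of the other isoforms that rose in 2i, Cox7a1 was at 0.04 ± 0.16 and Cox6b2 at 0.23 ± 0.18 in 50 µM against 2i, neither of which passed.

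The complex I genes that rose at 50 µM came from several of its modules. Ndufb10 (chr17:24722060-24724478), an accessory subunit of the far membrane arm, had 140.4, 126 and 142 CPM at 50 µM, against 95.8, 108 and 98.9 CPM in 2i, with no overlap (0.43 ± 0.09, adjusted p = 0.00249 by edgeR). Ndufb9, of the same arm, had 259, 227 and 278 CPM at 50 µM, against 204, 189 and 213 CPM in 2i (0.33 ± 0.09, adjusted p = 0.0178 by edgeR). Ndufb7, also of that arm, had 177, 192 and 214 CPM at 50 µM, against 158, 162 and 161 CPM in 2i (0.28 ± 0.09, adjusted p = 0.0418 by edgeR). For these 3 genes the libraries at 50 µM lay above all of 2i. Over 12 omissions of a single library, Ndufb9 lost its call in 4 and Ndufb7 in 6. Ndufb9 overlaps Gm49356 on its own strand.

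Ndufa13 rose again, with 218, 195 and 241 CPM at 50 µM, against 184, 166 and 176 CPM in 2i (0.31 ± 0.09, adjusted p = 0.0205 by edgeR). Ndufa5, an accessory subunit of the matrix arm, had 257, 237 and 272 CPM at 50 µM, against 208, 210.2 and 210.0 CPM in 2i (0.29 ± 0.08, adjusted p = 0.0196 by edgeR). Its 2i libraries were nearly level with each other. Ndufv1, which binds NADH and the flavin, passed narrowly (0.27 ± 0.09, adjusted p = 0.0472 by edgeR), as did Ndufa4 (0.29 ± 0.10, adjusted p = 0.0451 by edgeR), a protein named for complex I that was later found in complex IV. Ndufv2, by contrast, was at -0.02 ± 0.09 and did not pass. Ndufs1, Ndufs3, Ndufs7 and Ndufs8 lay between 0.07 and 0.26 and did not pass, though Ndufs1 (adjusted p = 0.0465 by edgeR) and Ndufs7 (adjusted p = 0.0361 by edgeR) did so with the replicate block. Over the 12 omissions of a single library, Ndufa13 lost its call in 4, Ndufa5 in 5, Ndufa4 in 7 and Ndufv1 in 11.

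Sdhc (chr1:171127165-171150603), one of the membrane anchors of complex II, had 174, 146 and 192 CPM at 50 µM, against 133, 129 and 126 CPM in 2i (0.40 ± 0.09, adjusted p = 0.00634 by edgeR). The highest value was that of replicate 3, and without that library the call was lost (adjusted p = 0.0725 by edgeR). Sdha and Sdhb were at 0.11 ± 0.08 and 0.18 ± 0.09, and Sdhd at 0.39 ± 0.31, none of which passed.

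In complex IV, Cox6a1, the general form of its pair, had 476, 454 and 556 CPM at 50 µM, against 344, 396 and 403 CPM in 2i (0.38 ± 0.10, adjusted p = 0.0121 by edgeR). It lay between them at 25 µM, with 429.8, 449.8 and 481 CPM. Its call was lost without 2i replicate 1 (adjusted p = 0.0935 by edgeR) or 50 µM replicate 3 (adjusted p = 0.11 by edgeR). Cox7a2l, a factor known for joining complexes III and IV into supercomplexes, had 143, 129 and 126 CPM at 50 µM, against 104, 105 and 102 CPM in 2i (0.35 ± 0.09, adjusted p = 0.00984 by edgeR). It lost its call without 50 µM replicate 1 (adjusted p = 0.0811 by edgeR). Cox5a, the member with the lowest p in 2i, had 958, 927 and 971 CPM at 50 µM and overlapped 2i.

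No gene of complexes III and V passed at 50 µM against 2i without the block. Uqcrc1, Uqcrc2 and Uqcrfs1 lay between -0.03 and 0.11. Atp5a1, Atp5b and Atp5c1 lay between 0.06 and 0.19, and of these Atp5b, the catalytic beta subunit, passed with the replicate block (0.19, adjusted p = 0.0336 by edgeR). Atp5e, which fell in 2i, had 247, 182 and 185 CPM at 50 µM, against 201, 162 and 138 CPM in 2i. The groups overlapped, but within each replicate number 50 µM was the higher, and with the block it passed (0.30, adjusted p = 0.00254 by edgeR). The other complex V genes that passed with the block were Atp5d, Atp5h, Atp5j2 and Atp5mpl.

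**Figure D4:**
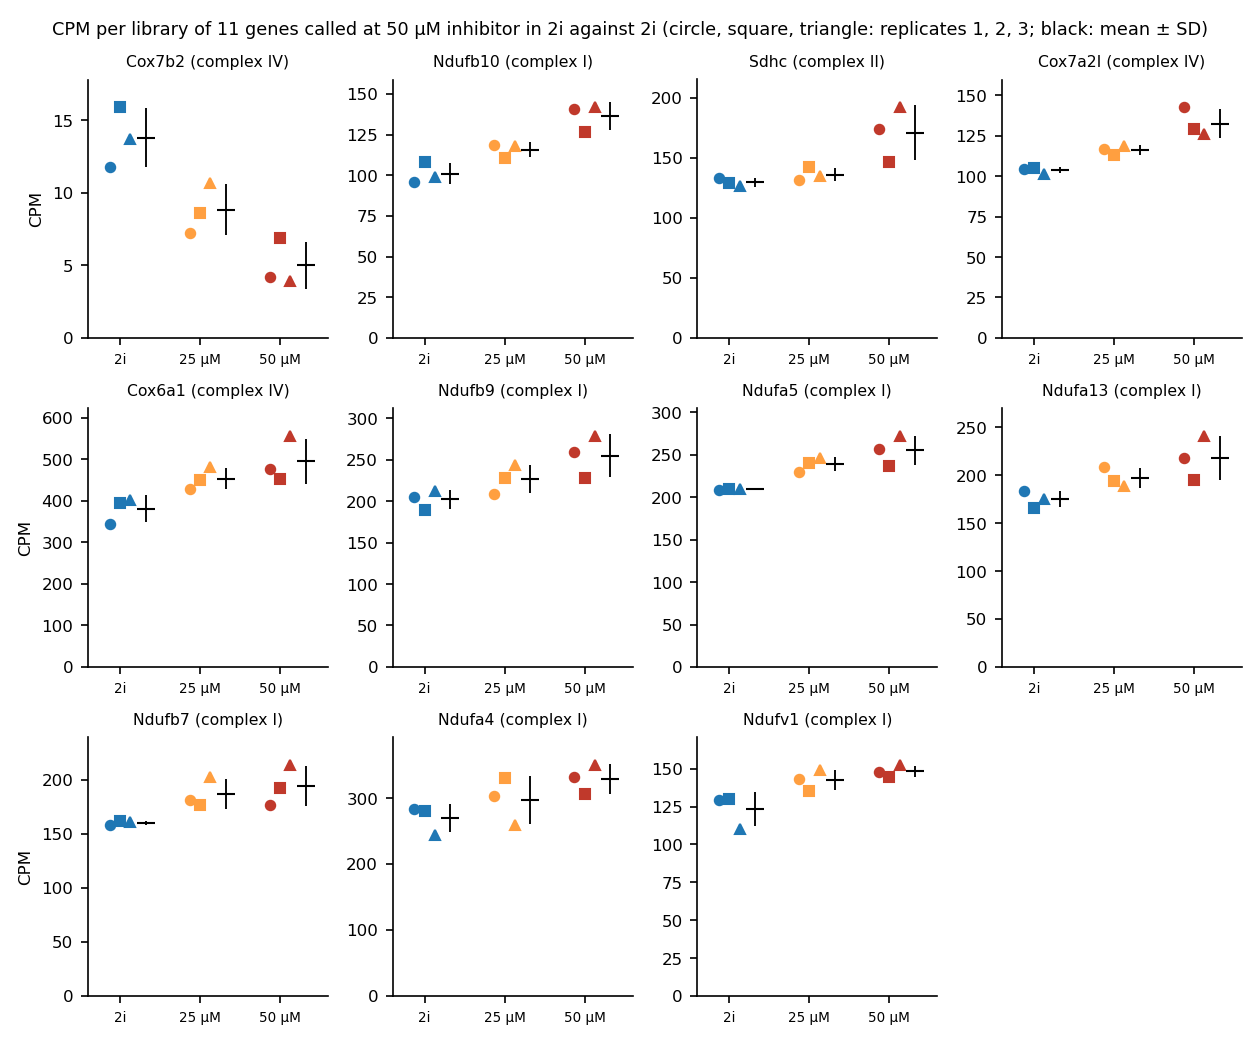
CPM per library of 11 of the 12 subunit genes called at 50 µM MRE11i in 2i against 2i, shown for 2i, 25 µM and 50 µM, each panel from 0. Points are libraries, with a circle, square and triangle for replicates 1, 2 and 3, and black bars give the mean and SD; Cox7b2 averages 13.8 CPM in 2i, 8.83 CPM at 25 µM and 4.99 CPM at 50 µM, and the other means at 25 µM lie between those of 2i and 50 µM.

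Between the doses, none of the 79 genes passed in 50 µM against 25 µM, where 1.16% of all genes did. At an unadjusted p under 0.05, 3 lay higher and 1 lower, and DESeq2 called none. With the block, 2 members passed, against 4.1% of all genes: Sdhc (0.33, adjusted p = 0.0108 by edgeR) and Cox7b2 (-0.82, adjusted p = 0.0177 by edgeR). Leaving out 50 µM replicate 2 also gave 2 calls, and leaving out the 4 libraries numbered 1 gave 0 both here and at 25 µM against 2i. The 95% interval of the difference stayed within 0.5 on the log2 scale for 71 of the 79 genes.

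Set directly against primed, 21 members rose and 3 fell at 25 µM, which is 30.4% of them against 42.3% of all genes. At 50 µM, 25 rose and 2 fell, which is 34.2% against 44.3%. These comparisons share the primed libraries with that of 2i, so their overlap is not read as a result. Side by side, Cox5a, Cox6b1, Cox7a1, Cox6b2, Uqcrb, Ndufa13, Ndufa3 and Ndufv2 were called higher against primed in 2i and at both doses, and Ndufa4l2 and Uqcrq were called lower in all 3. Complex IV had 7 risers of 14 at each dose, among them Cox6a1, Cox7a2 and Cox8a, which had not passed in 2i. This is 50.0% called at each dose, beside the 42.3 and 44.3% of all genes. Without primed replicate 1, or without 25 µM replicate 3, the calls at 25 µM came down to 15. Without the 4 libraries numbered 1, 15 rose and 3 fell at 25 µM, and 15 rose and 4 fell at 50 µM.

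Related genes, from lists named for this purpose, are given beside the subunits. In 2i against primed, 4 assembly factors rose and 4 fell of 46 tested, which is 17.4% called beside 40.4% of all genes. Among them were Ecsit (-0.78 ± 0.13), a complex I assembly factor, and Cox19 (0.75 ± 0.15), a copper factor of complex IV. Surf1 (-0.67 ± 0.16), which helps to build complex IV, and Uqcc2 (-0.44 ± 0.12), an assembly factor of complex III, fell as well. Among 19 subunits and electron carriers outside the symbols, 2 rose and 3 fell, a share of 26.3% that was also below that of all genes. They include Dhodh (-0.91 ± 0.10), which hands electrons from pyrimidine synthesis to ubiquinone, and Cyc1 (-0.25 ± 0.08), whose call was lost without any of 4 libraries, primed replicates 1 and 3 and 2i replicates 1 and 3. Etfdh (0.47 ± 0.14), which passes electrons from fatty acid oxidation to ubiquinone, rose, and Gpd2 (-0.30 ± 0.10), a glycerol phosphate dehydrogenase, fell but lost its call without primed replicate 1 or without 2i replicate 2 or 3. Of 8 tested mitochondrially encoded genes, 12.5% were called: 1 fell, mt-Nd6 (-0.50 ± 0.13), which is read from the other strand than the rest.

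Mitochondrial ribosomal proteins, which make those subunits, gave the most calls: 5 rose and 26 fell of 77, with a median of -0.17 and 40.3% called, beside 40.4% of all genes. Mrpl12 (-0.59 ± 0.08), Mrps17 (-0.59 ± 0.09) and Mrpl24 (-0.51 ± 0.09) fell and Mrps2 (0.48 ± 0.09) rose. Without primed replicate 1, 3 rose and 17 fell. Of 22 genes of the tricarboxylic acid cycle and pyruvate dehydrogenase, 3 rose and 5 fell, or 36.4% called. Pdk1, the kinase that shuts off pyruvate dehydrogenase, had the largest change (-2.87 ± 0.13), and Idh2 (0.86 ± 0.10), Sucla2 (0.48 ± 0.09) and Pdha1 (0.42 ± 0.09) rose. Of 19 regulators of mitochondrial biogenesis, 1 rose and 3 fell, or 21.1% called, with Myc at -3.90 ± 0.42 and Esrrb, a nuclear receptor of naive cells, at 0.62 ± 0.09. The 2 others were Tfb1m (-0.63 ± 0.13) and Ssbp1 (-0.37 ± 0.11), of which Ssbp1 lost its call without primed replicate 3 or 2i replicate 1.

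At 50 µM against 2i, the shares called are to be read beside 15.1% of all genes, or 24.5% with the replicate block. Without the block they were 25.0% of mitochondrially encoded genes, 13.6% of genes of the tricarboxylic acid cycle and pyruvate dehydrogenase, 10.5% of the genes outside the symbols, 5.26% of regulators, 5.19% of mitochondrial ribosomal proteins and 2.17% of assembly factors. Without the block, the share was above that of all genes for the first of these lists, with 8 genes tested, and below it for the other 5. With the block, it was above that of all genes for the mitochondrially encoded, the tricarboxylic acid cycle and, narrowly, the regulator lists. It was below for the remaining lists. In detail, 2 mitochondrially encoded genes rose of 8, mt-Cytb (0.57 ± 0.10) and mt-Nd1 (0.37 ± 0.10), and with the replicate block 5 did. Among mitochondrial ribosomal proteins, 3 rose and 1 fell of 77, and with the block 10 rose and 2 fell. Mrpl54 (0.61 ± 0.09), Mrpl49 (0.37 ± 0.09) and Mrpl38 (0.30 ± 0.10) rose and Mrpl39 (-0.67 ± 0.09) fell. Of the 22 genes of the tricarboxylic acid cycle and pyruvate dehydrogenase, Pdk1 (0.42 ± 0.14) rose and Sucla2 (-0.38 ± 0.09) and Pdhx (-0.33 ± 0.10) fell, while with the block 5 rose and 4 fell. Tfb1m (0.57 ± 0.13), which modifies the mitochondrial ribosomal RNA, was the 1 regulator of 19 to rise, and 5 rose with the block. Of 46 assembly factors, Coa6 (-0.41 ± 0.13) fell, and with the block 3 rose and 2 fell. Gpd2 (0.31 ± 0.10) and Etfdh (0.40 ± 0.13) were the 2 called of 19 outside the symbols, and with the block 3 rose and 1 fell. At 25 µM against 2i, Mrpl54 (0.50 ± 0.09) was the 1 gene called in all these lists. Of these genes, Pdk1, Etfdh, Gpd2, Coa6, mt-Nd1, Pdhx, Mrpl49, Mrpl38 and, at 25 µM, Mrpl54 each lost the call without some library of the groups compared.

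**Figure D5:**
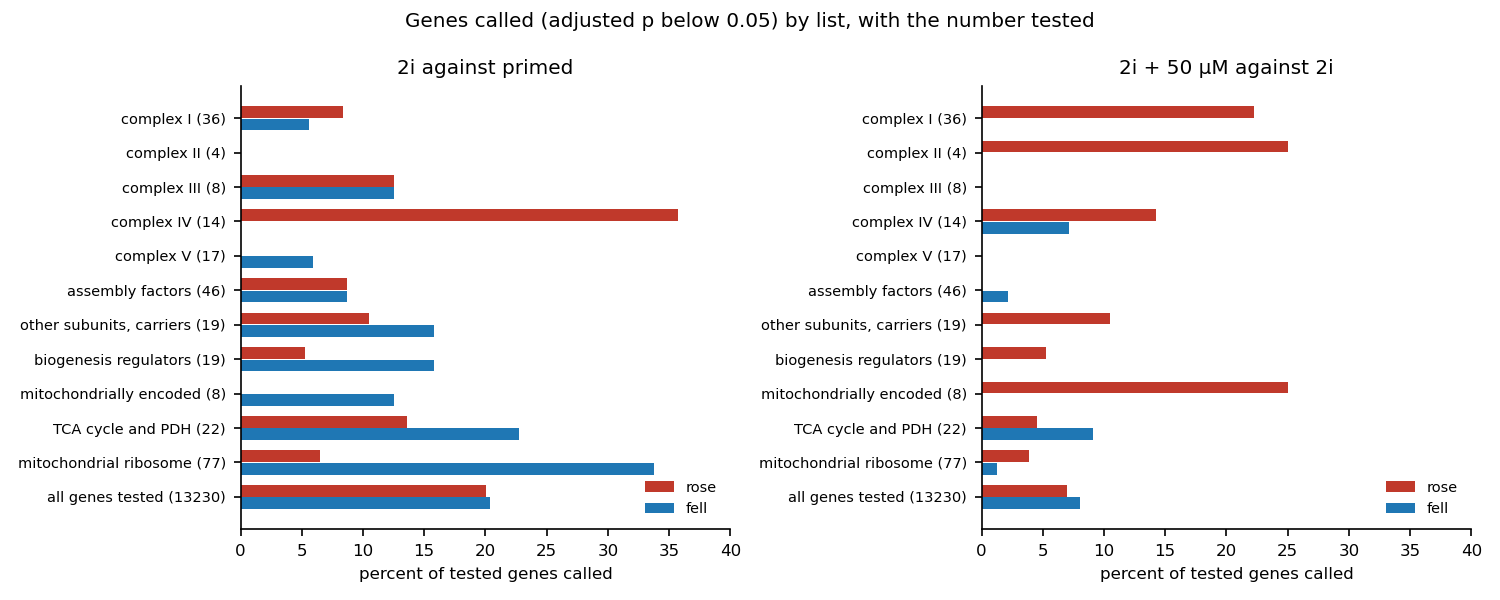
Percent of tested genes called higher (red) and lower (blue) in each complex, in each related list and among all genes tested, for 2i against primed (left) and 2i with 50 µM MRE11i against 2i (right), with the number tested in parentheses. In 2i, 5 of 14 complex IV genes rose and 26 of 77 mitochondrial ribosomal proteins fell; at 50 µM, 8 of 36 complex I genes rose.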

How the data were processed

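R1 129 mouse embryonic stem cells were profiled with QuantSeq 3′ mRNA libraries of oligo-dT primed total RNA on an Illumina NextSeq, per the labels' protocols. FastQC, STAR, DESeq2 1.32.0 and the GRCm38 (mm10) build are named in the submitters' processing notes, whose text does not state how they were used. The authors deposited 1 table of read counts per library, whole numbers over 56805 features. The sources used here do not give the strand setting, annotation release or duplicate handling. The 114 spike-in features held 2 counts and were left out. Of the 56691 mouse IDs, 52073, with 98.4% of counts, were matched to symbols in GENCODE M21 (GRCm38).

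All 12 libraries were fitted together by group in edgeR 4.0.16 (R 4.3.3) with TMM factors, filterByExpr and the robust quasi-likelihood test, and p-values were adjusted over 13230 genes by Benjamini and Hochberg. Calls have an adjusted p below 0.05. Levels are CPM by TMM-scaled totals, and intervals are 95%, cover counting and replicate error, and rest on 3 libraries a group. Alternatives were relative log expression factors, library totals, no filter, DESeq2 1.42.0, the compared groups alone, a replicate block and each library left out. Leaving out the 4 libraries numbered 1, and running the related lists under all settings, were added after seeing the data. The steps were run on simulated counts, drawn independently for each library with no effect of the replicate number. They thus do not test how the fit behaves where same-numbered libraries deviate together.

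Libraries share replicate numbers in their titles. Same-numbered libraries deviated together in 25 µM against 2i (r = 0.314, 0.168 and 0.155 across genes), 50 µM against 2i (0.249, 0.115 and 0.139) and 50 µM against 25 µM (0.286, 0.134 and 0.162), each above 0.1, so the numbers were taken to pair them. For 2i against primed, r was 0.244, 0.136 and 0.091, the last under 0.1, so the numbers were not taken to pair them. Each still lay above the highest r with another number (-0.136, 0.064 and 0.036), so a shared replicate effect may remain there. Within groups, pairs of libraries with replicate 1 differed by a chi-square per degree of freedom of 9.83 to 13.2, and others by 2.64 to 7.30, so no library was a copy.

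Members and lists were chosen with earlier results of these data known. Named genes were the called members, with values per library for up to 10 with the smallest p in a comparison, the core subunits and isoform sets whatever their p, and up to 4 called genes with the smallest p of each related list. Shared sequence was counted as 50-base words in the last 300 bases of each transcript. Promoter windows came from RefSeq. The values of 1 member are not reported here.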

Additional observations from a re-analysis of the deposited data

How the results depend on the processing

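In 2i against primed, the 13 called members kept their direction and their call under relative log expression factors, library totals, no low-count filter, DESeq2, the 2 groups alone, the replicate block and without the 4 libraries numbered 1. Single omissions gave 12 to 15 calls, and 11 of the 13 members were called in all of them. With the replicate block, where numbers were not taken to pair the libraries (r between 0.012 and 0.244 across genes), 20 members were called in 2i against primed, 31 at 25 µM against primed and 42 at 50 µM against primed, beside 47.6, 49.5 and 51.3% of all genes. At 50 µM against 2i, 5 members were called with library totals, 26 with the block, 7 without the 4 libraries numbered 1 and 3 to 13 over single omissions, and 2 of the 12 held through all of these omissions. The median log2 fold change of all 79 was 0.064 to 0.193 over the omissions, and in 2i against primed it was 0.005 to 0.070. At 25 µM against 2i, 2 members were called with the block and 0 to 0 over single omissions, and the median was 0.058 with library totals and 0.060 to 0.108 over the omissions. Between the doses, 1 was called with no filter, 2 with the block and 0 to 2 over single omissions. Against primed, single omissions gave 15 to 25 calls at 25 µM and 18 to 33 at 50 µM. No member's called change turned its direction under any of these settings, and the cause of the lost calls was not tested. Among related lists, calls in 2i against primed ran from 20 to 41 for mitochondrial ribosomal proteins and from 6 to 11 for assembly factors over all settings. With 3 libraries a group, low genes such as Cox7b2, Ndufa4l2 and Atp5g2 had wide errors, as did Sdhd at a higher level, and 6 members had too few counts to test.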
